A study of Homo sapiens with 12 samples.

Results

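The genes described here are the neurofilament and neuronal intermediate filament genes NEFL, NEFM, NEFH, INA, PRPH and NES. They were chosen by their symbols, and each of the 6 was listed in the tables of all 12 libraries, so 6 of 60660 listed genes are described. Messenger RNA was measured in LNCaP and 22Rv1, a pair of human PCa cell lines. Each line was transfected with NC-mimic, a negative control RNA, or with piR-4447944 mimic, a synthetic copy of a PIWI-interacting RNA. All cells, the controls included, were kept in androgen-deprived medium with 10% charcoal-stripped serum (CS-FBS), and there were 3 libraries in each of the 4 groups. The question was whether the mimic changes NEFH, and whether the other filament genes move with it.

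Intermediate filaments are rope-like polymers of the cytoskeleton, and neurons build theirs from a set of proteins that other cells mostly lack. The light, medium and heavy neurofilament chains (NEFL, NEFM and NEFH) assemble together with alpha-internexin (INA) or peripherin (PRPH), and the light chain forms the core of the polymer. Nestin (NES) is a long filament protein of neural progenitors that needs partners such as vimentin to polymerise. In the prostate these genes are known from nerves and from neuroendocrine tumour cells. For NEFH the paper also cites earlier reports of lower mRNA and protein in PCa, and it describes the gene as a tumour suppressor.

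The expected counts of a library, which are the reads per gene as RSEM estimated them, summed to between 12161091 and 22179601. The labels do not say whether the 3 libraries of a group came from separate cultures, so p-values measure the spread between these libraries, which may be technical. Replicates of 22Rv1 differed more than those of LNCaP. The biological coefficient of variation in edgeR was 0.343 in 22Rv1 and 0.0964 in LNCaP, and pairs of 22Rv1 replicates with a replicate 3 library had a chi-square per gene of 41.35 to 117.9 against 8.80 and 7.55 for the other two pairs. Values are therefore given with and without these libraries where a result rests on them. The luminal prostate markers KLK3, KLK2, TMPRSS2, KRT8, KRT18 and HOXB13 each had a mean TPM of at least 1 in every group. With NC-mimic KLK3 was 2043 TPM in LNCaP and 49.6 TPM in 22Rv1. Of 5 neuron markers, 0 reached a mean TPM of 1 in LNCaP and 1, SNAP25, did in 22Rv1, where RBFOX3, a defining marker of neurons, stayed at 0.283 TPM with NC-mimic. Of 8 neuroendocrine markers, 1 reached it in LNCaP and 4 in 22Rv1 with NC-mimic. In LNCaP and 22Rv1 these 4 had means of 0.09 and 5.84 TPM (CHGA), 0.01 and 24.5 (CHGB), 0.74 and 61.2 (SYP), and 55.1 and 216 (ENO2). These are bulk libraries, in which fewer cells of a kind and less RNA per cell cannot be told apart.

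NEFH (ENSG00000100285.10) covers 29480218 to 29491390 of chromosome 22 (hg38, plus strand) and has 4 exons, with a 3′UTR of 687 bases in its annotated transcript of 3795 bases. PRPH (ENSG00000135406.15) is on chromosome 12 from 49295147 to 49298686, plus strand, with 9 exons. NES (ENSG00000132688.11) runs from 156668763 to 156677407 on the minus strand of chromosome 1, and INA (ENSG00000148798.11) from 103277138 to 103290346 on the plus strand of chromosome 10. Coordinates and exons are those of GENCODE release 44, which may not be the release the authors counted with.

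The study proposed that piR-4447944 acts on NEFH through its 3′UTR. It predicted a site there with the program miRanda. It also used reporters with a normal or mutated 3′UTR, RNA pull-down and immunoprecipitation of the PIWI protein PIWIL2. By RT-qPCR the paper reported lower NEFH mRNA with the mimic in both lines, and by western blot less NEFH protein in both. It also reported higher NEFH after knockdown of the piRNA in LNCaP-AI, an androgen-independent line made from LNCaP. These experiments were not analysed here, and whether the word ATAGCTT lies in the predicted site was not checked. The part of the NEFH 3′UTR with the word ATAGCTT is shown. This word of 7 letters is the complement of bases 2 to 8 of the piRNA, counted from its 5′ end, and is set in capitals. The stretch is chr22:29490910-29490939 of hg38, read on the plus strand, in the last exon.
NEFH 3′UTR: ccccaggcgatggacaattatgATAGCTTa
The word starts at base 229 of the 3′UTR and occurs 1 time in the transcript. Searched on the strand of the transcript only, it was also found 1 time in the 3′UTR of NEFL and 0 times in the transcripts of NEFM, INA, PRPH and NES. The word is common, since 10.18% of 19229 annotated 3′UTRs hold it, and 3.16% of the 1931 within 20% of the NEFH length. A match of letters is a description of the sequence and does not show binding.

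The levels of the 6 genes were compared first between the lines, in the libraries with NC-mimic. LNCaP and 22Rv1 held different filament transcripts. LNCaP had mostly NEFL and PRPH, and 22Rv1 had mostly PRPH, NES and NEFH. Levels per length are given as TPM, which the authors scaled for gene length and depth.

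NEFL, the core chain, was 6.04, 7.27 and 6.06 TPM in the 3 LNCaP libraries and 0.07, 0.46 and 0.41 TPM in the 3 22Rv1 libraries. Every LNCaP library lay far above every 22Rv1 library, and the 22Rv1 values rest on 18 counts in all. RSEM gave NEFL effective lengths of 3314, 1222 and 1714 bases in these 22Rv1 libraries. Without this length, as CPM (counts divided by library size), they were 0.182, 0.452 and 0.571. By edgeR NEFL was 41.7-fold lower in 22Rv1 (95% interval 22.5 to 77.2, log2 fold change -5.38, SE 0.39, n = 3 and 3); the adjusted p was 1.47e-05 (quasi-likelihood test, Benjamini-Hochberg).

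NEFH, the heavy chain with the long phosphorylated tail, had the opposite pattern, at 0.14, 0.14 and 0.09 TPM in LNCaP and 11.80, 15.72 and 20.22 TPM in 22Rv1. The LNCaP values rest on 7, 7 and 4 counts, the 22Rv1 values on 715, 695 and 711 counts. NEFH was 135-fold higher in 22Rv1 (95% interval 80.6 to 225, log2 fold change 7.07, SE 0.32), with an adjusted p of 1.63e-06 in the same edgeR fit. The heavy chain and the light chain were therefore high in different lines.

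NEFM (ENSG00000104722.14) and NEFL (ENSG00000277586.4) are neighbours on chromosome 8, 31.9 kb apart and on opposite strands, NEFM from 24913758 to 24919098 and NEFL from 24950955 to 24956721. NEFM, the medium chain, was near the limit of detection throughout. It had 7, 0 and 0 counts in LNCaP and 0, 0 and 2 counts in 22Rv1 with NC-mimic, so that a single library held all of the counts in each line. INA had 0 counts in the 3 LNCaP libraries, which allows a level of up to 0.0543 CPM (3 counts over the group), and 1 count in 22Rv1, and across all 12 libraries it never exceeded 3 counts. Both genes were below the low-count filter in every fit. No line held mRNA of all 3 neurofilament chains above 1 TPM.

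PRPH, a filament protein of peripheral neurons, was 3.83, 3.09 and 7.02 TPM in LNCaP and 26.82, 25.56 and 28.91 TPM in 22Rv1. The groups did not overlap, as for 67.2% of all genes tested, and the LNCaP libraries were spread more widely for their level. On the scale of counts PRPH was 5.05-fold higher in 22Rv1 (95% interval 3.45 to 7.40, log2 fold change 2.34, SE 0.24, adjusted p 9.36e-05 by edgeR with Benjamini-Hochberg adjustment). PRPH has 6 annotated transcripts of 630 to 1800 bases, and the effective length that RSEM gave it lay between 753 and 1387 bases in LNCaP and between 732 and 889 bases in 22Rv1. The PRPH values that do not use this length, CPM (counts divided by library size), were 2.90, 2.92 and 4.201 in LNCaP, and the highest library was the same on both scales.

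NES was 0.44, 0.48 and 0.51 TPM in LNCaP and 22.96, 24.49 and 28.57 TPM in 22Rv1. It was 55.5-fold higher in 22Rv1 (95% interval 42.8 to 71.9, log2 fold change 5.79, SE 0.16, adjusted p 2.52e-07 by edgeR). NEFH and NEFL passed the low-count filter only through the line in which they are high, so the number of filament genes with a difference is not read as a result. Over all 17497 genes tested, 58.4% had an adjusted p under 0.05, 30.9% higher and 27.5% lower in 22Rv1. A difference of over 16-fold with such a p, as for NEFH, NES and NEFL, was met by 9.74% of genes. The cell line and any batch that goes with it cannot be told apart.

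**Figure D1:**
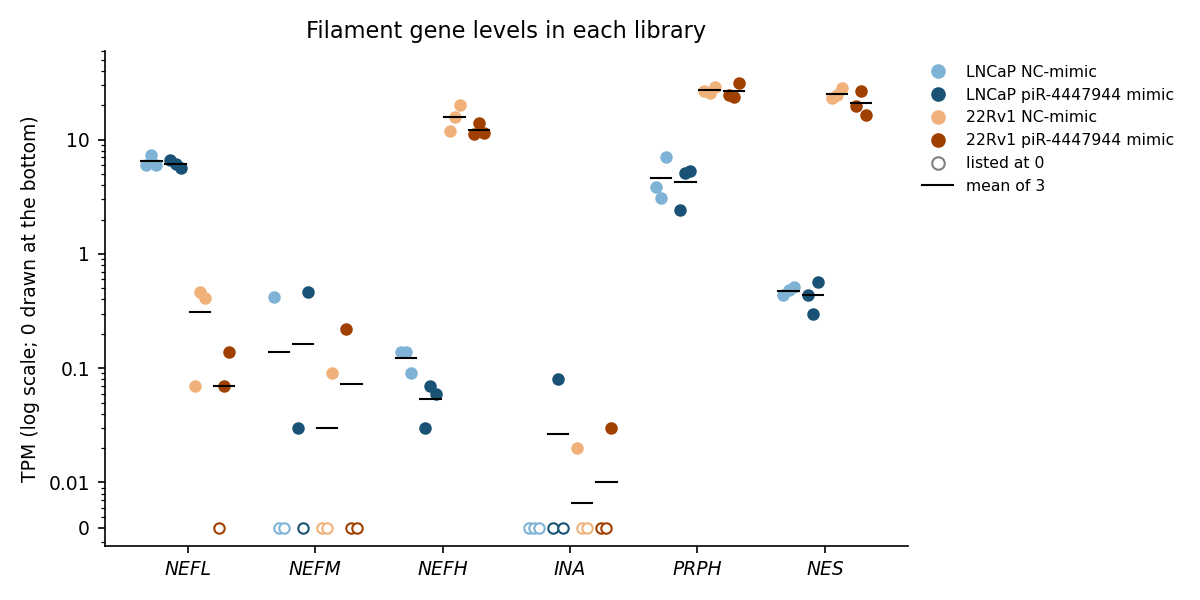
TPM of the 6 filament genes in each of the 12 libraries, on a log axis, with open circles for libraries in which a gene is listed at 0 and a bar at the mean of each group of 3. NEFH, PRPH and NES sit higher in 22Rv1 and NEFL higher in LNCaP, while NEFM and INA stay below 0.5 TPM in every library.

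By the order of TPM in LNCaP with NC-mimic, NEFL (6.46 ± 0.704, SD, n = 3) and PRPH (4.65 ± 2.09) came before NES (0.477 ± 0.0351), NEFM (0.140 ± 0.242), NEFH (0.123 ± 0.0289) and INA. NEFL and PRPH overlapped between libraries, as did NEFM and NEFH, whereas NES stood apart from the genes on either side of it. The order in 22Rv1 with NC-mimic was PRPH (27.1 ± 1.69), NES (25.3 ± 2.90), NEFH (15.9 ± 4.21), NEFL (0.313 ± 0.212), NEFM and INA. PRPH and NES overlapped there, and NEFH lay below both in every library. The place of PRPH depends on the effective length that RSEM gave it, 732 to 823 bases in these libraries, where its longest annotated transcript has 1800 bases. Against all genes listed, the mean level of NEFH was above that of 63.6% of genes in LNCaP and 87.8% in 22Rv1.

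The summed TPM of the 6 genes was 11.8 ± 1.59 (SD, n = 3) in LNCaP and 68.7 ± 8.54 in 22Rv1 with NC-mimic. NEFL made up 55.4% ± 10.96 of that sum in LNCaP and PRPH 38.2% ± 11.9, with NEFH at 1.07% ± 0.360. In 22Rv1 PRPH made up 39.7% ± 3.39, NES 36.9% ± 0.352 and NEFH 22.9% ± 3.44, with NEFL at 0.444% ± 0.299. These shares too depend on the effective lengths that RSEM gave the genes. With piR-4447944 mimic the shares in 22Rv1 were 44.7% ± 8.11 for PRPH, 34.7% ± 6.91 for NES and 20.3% ± 1.31 for NEFH, and each of the 3 overlapped the NC-mimic libraries.

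**Figure D2:**
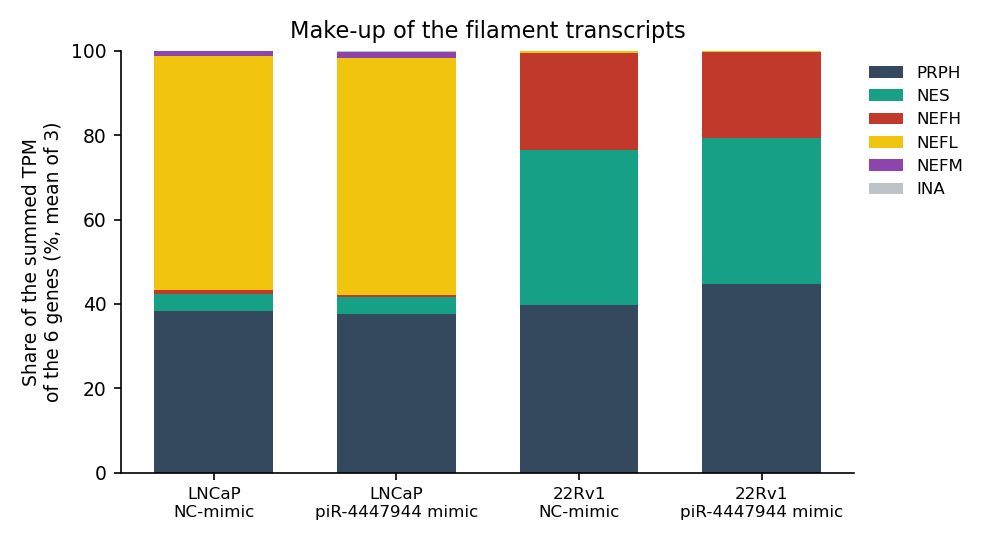
Share of each gene in the summed TPM of the 6 filament genes, in percent, as the mean of 3 libraries in each group. The light chain makes up 55.4% in LNCaP with NC-mimic and 0.444% in 22Rv1, where PRPH, NES and NEFH fill the sum. In 22Rv1 with the mimic PRPH makes up 44.7%, NES 34.7% and NEFH 20.3%.

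Within each line the piR-4447944 mimic libraries were then compared with the NC-mimic libraries. Of the 6 genes, 3 were above the low-count filter in LNCaP, and 0 of the 3 had an adjusted p under 0.05, as was so for 0% of 16244 genes tested by edgeR. The rule of the study asks for a log2 fold change past 0.2 in either direction with an unadjusted p under 0.05. The study put it to DESeq2's shrunken fold changes, whereas here it is put to those of edgeR, which are not shrunken. It called 0 of the 3, where it called 2.22% of all genes. Over all genes 433 had an unadjusted p under 0.05 and DESeq2 gave 2 adjusted p under 0.05, of which 0 were filament genes. The precision differed between the genes, as NEFL had 237 to 353 counts per library and NES 20 to 40.

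NEFL in LNCaP was 6.66, 6.14 and 5.69 TPM with the mimic, inside or next to the 6.04 to 7.27 TPM of the controls, and the groups overlapped. Its log2 fold change was -0.06 (SE 0.13), with a 95% interval of -0.34 to 0.21. This is the narrowest interval of the 3 genes, though a p above the threshold does not show that the level was the same. PRPH had a log2 fold change of 0.08 (SE 0.27) and NES one of -0.12 (SE 0.34), with overlapping groups, and all 3 adjusted p-values were 0.999 by edgeR with Benjamini-Hochberg adjustment.

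NEFH in LNCaP was below the filter. Its counts were 7, 7 and 4 with NC-mimic and 1, 3 and 3 with the mimic, or 0.363, 0.359 and 0.244 CPM against 0.0676, 0.185 and 0.174 CPM. Each mimic library lay below each control library, and 3.74% of the genes above the filter had groups that did not overlap in this direction. The ratio of mimic to control was 0.445 with an exact 95% counting interval of 0.157 to 1.12, which covers counting error only and includes 1. The exact two-sided permutation test gave p = 0.1, the smallest that 3 against 3 libraries allow. At 7 counts against 18 a change of NEFH was not resolved at this depth in LNCaP.

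22Rv1, where NEFH was abundant, gave a more precise measure. NEFH was 32.6, 44.9 and 58.0 CPM with NC-mimic and 30.9, 37.7 and 30.6 CPM with piR-4447944 mimic. NC-mimic replicate 3 was the highest of the 6 libraries and NC-mimic replicate 1 lay among the mimic libraries, so the groups overlapped. The log2 fold change was -0.45 (SE 0.23), with a 95% interval of -0.99 to 0.09, an unadjusted p of 0.0890 and 0.999 after adjustment (edgeR, Benjamini-Hochberg). In 22Rv1 the replicate 3 libraries deviated together, while the values did not show how replicates 1 and 2 pair. With the replicate number as a block the log2 fold change was -0.42 and the adjusted p 0.869 by edgeR.

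The size of the NEFH difference rested on NC-mimic replicate 3. Without that library the log2 fold change in 22Rv1 was -0.23, and without NC-mimic replicate 1 it was -0.65, with an unadjusted p of 0.0191 by edgeR that meets the rule of the study. Without both replicate 3 libraries, a choice made after seeing the data, it was -0.16. NEFH was lower with the mimic within each of the 3 numbered pairs, where the pairs of replicates 1 and 2 were closer than that of replicate 3. This depends on the numbering, since the values do not show how replicates 1 and 2 pair. NEFH was 32.6 CPM in NC-mimic replicate 1 and 37.7 CPM in mimic replicate 2.

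**Figure D3:**
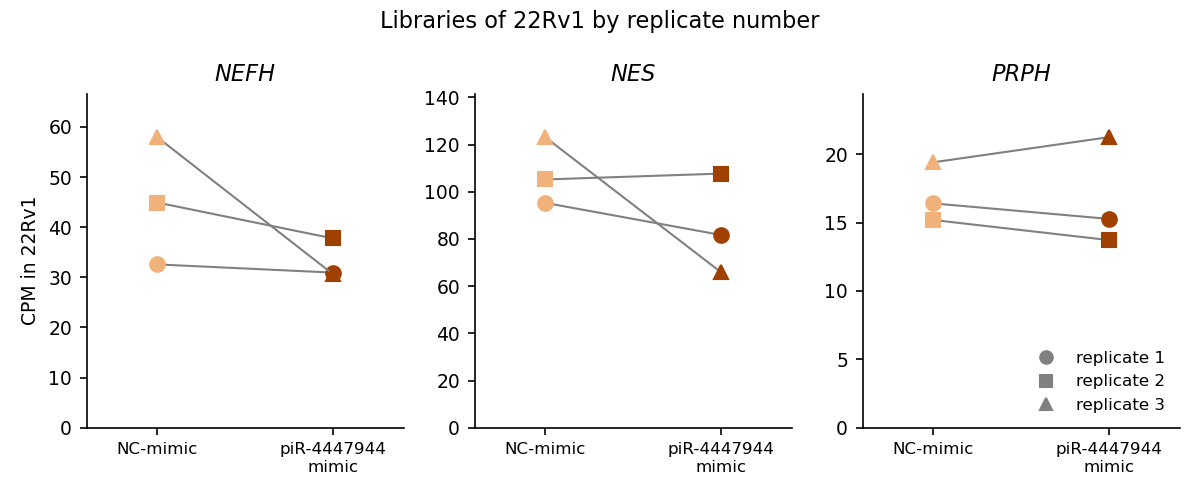
CPM of NEFH, NES and PRPH in the 6 libraries of 22Rv1, with the NC-mimic and mimic libraries of the same replicate number joined by a line and each vertical axis starting at 0. NEFH goes from 58.0 to 30.6 CPM in the pair of replicate 3 and from 32.6 to 30.9 CPM in the pair of replicate 1. NES is lower with the mimic in 2 of the 3 pairs, and PRPH is higher in the pair of replicate 3. The lines join libraries by number only, since the values do not show how replicates 1 and 2 pair.

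NES in 22Rv1 was 95.3, 105 and 123 CPM with NC-mimic and 81.7, 108 and 65.8 CPM with the mimic. Mimic replicate 3 was the lowest library and mimic replicate 2 lay among the controls. The log2 fold change of NES was -0.35 (SE 0.21), with a 95% interval of -0.83 to 0.14 and an adjusted p of 0.999 by edgeR. It became -0.18 without mimic replicate 3 and -0.07 without both replicate 3 libraries. Without mimic replicate 2 it was -0.56, with an unadjusted p of 0.0293 by edgeR, which meets the rule of the study. PRPH was 16.4, 15.2 and 19.4 CPM with NC-mimic and 15.3, 13.7 and 21.2 CPM with the mimic, with a log2 fold change of -0.03 (SE 0.23) and overlapping groups.

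NEFL in 22Rv1 had 4, 7 and 7 counts with NC-mimic and 0, 3 and 2 counts with the mimic, below the filter. The mimic libraries all lay below the controls, as for 4.72% of the genes above the filter. The ratio of mimic to control was 0.288 with an exact 95% counting interval of 0.0836 to 0.805, and the exact two-sided permutation test gave p = 0.1. NEFM had 2 counts with NC-mimic and 4 with the mimic, and INA had 1 count in each group.

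In all, 3 of the 6 genes could be tested in 22Rv1, and 0 of these 3 had an adjusted p under 0.05, against 0% of 16898 genes. The rule of the study called 0 of them, against 1.48% of all genes. Over all genes 250 had an unadjusted p under 0.05 by edgeR, and DESeq2 gave 1 adjusted p under 0.05, which was no filament gene. The summed TPM of the 8 neuroendocrine markers in these libraries was 263, 283 and 376 with NC-mimic and 240, 294 and 1022 with the mimic, the last value in replicate 3. ENO2 made up most of these sums, with a mean of 216 ± 45.1 TPM (SD, n = 3) with NC-mimic and 427 ± 426 TPM with the mimic. CHGA had a mean of 5.84 and 1.84 TPM and a log2 fold change of -2.01 (SE 1.03), CHGB 24.5 and 26.6 TPM, and SYP 61.2 and 63.2 TPM. INSM1 and NEUROD1 were listed at 0 in all of these libraries. KLK3, which encodes PSA, was 40.1 to 50.4 CPM with NC-mimic and 17.4 to 37.5 CPM with the mimic. KLK3 had a log2 fold change of -0.76 and KLK2, a related kallikrein, one of -0.53. The rule of the study called both. The part of these shifts in the NEFH values was not tested.

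Averaged over both lines in a fit of all 12 libraries, NEFH had a log2 fold change of -0.54 (SE 0.19), with a 95% interval of -0.96 to -0.12. Its p by edgeR was 0.0155 before and 0.999 after Benjamini-Hochberg adjustment. NEFH entered this fit only through its level in 22Rv1, since its 25 counts in LNCaP are below the filter there, so the LNCaP side of the mean rests on few reads. With edgeR's fold changes it met the rule of the study, as 0.684% of 18720 genes did in this direction, 0.86% in the other and 1.54% in all, and 0 genes of the fit had an adjusted p under 0.05. There were 340 genes with an unadjusted p under 0.05 by edgeR, and DESeq2 gave 0 adjusted p under 0.05. Without 22Rv1 NC-mimic replicate 3 the estimate was -0.37 with an unadjusted p of 0.0839, which misses that rule. DESeq2's shrunken estimate of this mean, the scale on which the study put the rule, was -0.16, which misses the limit of 0.2. The unadjusted p of its Wald test was 0.0284. In 22Rv1 alone that estimate was -0.23, past the limit, with an unadjusted Wald p of 0.0915. The paper describes genes changed in both lines and does not mention such a mean.

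NES had a mean effect of -0.27 (SE 0.15), PRPH one of 0.03 (SE 0.17) and NEFL one of -0.40 (SE 0.33), on the log2 scale, and their 95% intervals all include 0. The smallest unadjusted p of the 3 was 0.103, for NES, with adjusted p-values of 0.999 by edgeR. An effect of NES or NEFL as large as that of NEFH lies inside their intervals. The NES value moved with single libraries. It was -0.39 (unadjusted p 0.0306 by edgeR) without 22Rv1 mimic replicate 2 and -0.35 (unadjusted p 0.0352) without LNCaP mimic replicate 3, which both meet the rule of the study, and -0.16 without 22Rv1 mimic replicate 3.

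**Figure D4:**
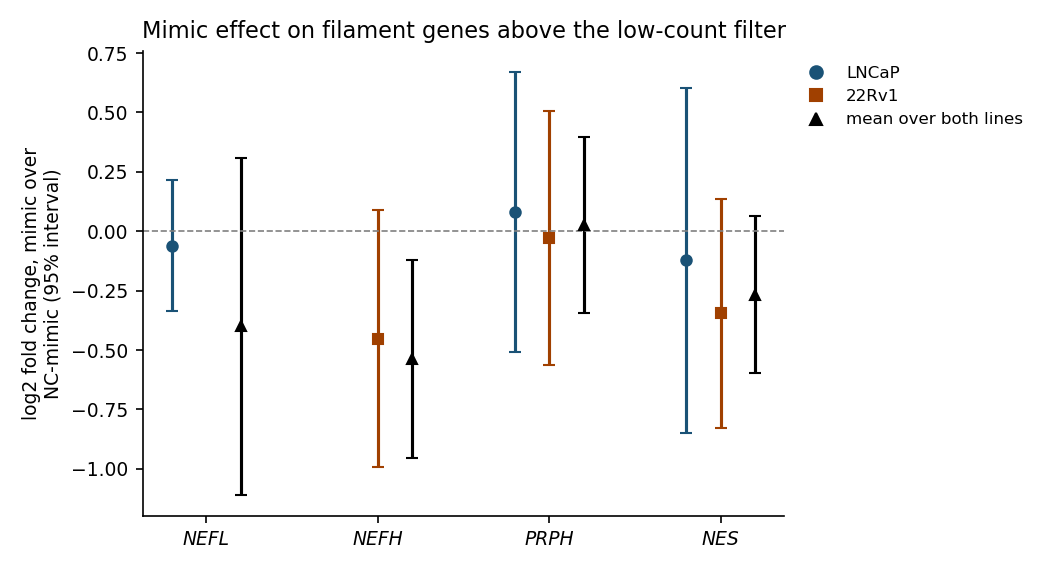
Log2 fold change of piR-4447944 mimic over NC-mimic with its 95% interval for the filament genes above the low-count filter, in LNCaP, in 22Rv1 and as the mean over both lines. The interval of NEFH over both lines, from -0.96 to -0.12, is the only one that leaves out 0, before adjustment over all genes, and that of PRPH is centred near 0 in each fit.

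The effect of the mimic was also compared between the lines. NEFH differed by 0.68 (SE 0.53) on the log2 scale, 22Rv1 against LNCaP, with an unadjusted p of 0.225 in edgeR. NES differed by -0.23 (SE 0.33) and PRPH by -0.10 (SE 0.36). NEFL differed by -1.74 (SE 0.70), with a p by edgeR of 0.0293 before and 1 after Benjamini-Hochberg adjustment, where 3.26% of all genes had such an unadjusted p. Hence the data do not show a difference between the lines in the NEFH effect, and the estimate in LNCaP rests on 25 counts.

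**Figure D5:**
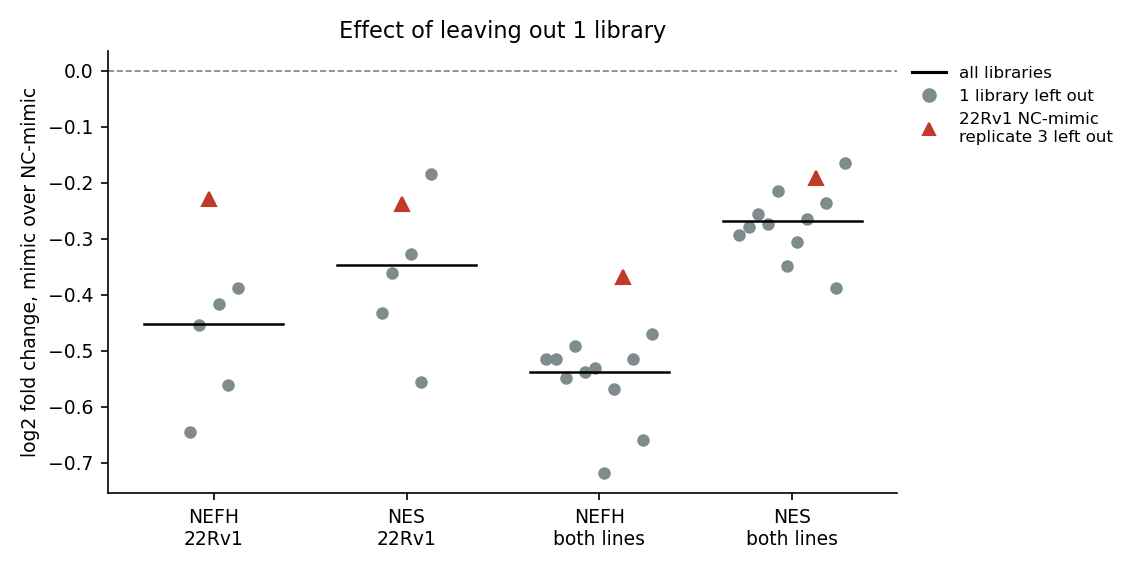
Log2 fold change of NEFH and NES, mimic over NC-mimic, in 22Rv1 and over both lines, with all libraries (line) and with each library left out in turn (points). Every point lies below 0, and leaving out 22Rv1 NC-mimic replicate 3 (triangles) brings NEFH from -0.45 to -0.23 in 22Rv1 and from -0.54 to -0.37 over both lines.

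To see whether the other filament genes follow NEFH from library to library, log2 CPM was correlated over the 6 libraries of 22Rv1 for the 2 other genes above the filter. NES had a Pearson r of 0.834 with NEFH (exact permutation p = 0.0375, adjusted over the 2 relations 0.0750) and a Spearman rho of 0.943 (exact permutation p = 0.0167, adjusted 0.0333). Leaving out the 2 libraries farthest from the NEFH median gave an r of 0.854, and leaving out both replicate 3 libraries gave 0.804, each over 4 libraries. PRPH had an r of 0.0848 (exact permutation p = 0.874) and a rho of -0.31 (exact permutation p = 0.564), and its r was -0.72 without the 2 farthest libraries. NES was high and low in nearly the same libraries as NEFH and PRPH was not. These libraries share replicate numbers and groups and are not fully independent. In LNCaP the counts of NEFH were too few for such a comparison.

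Many genes followed NEFH more closely than NES did. Of 10870 genes with a mean of at least 10 CPM in 22Rv1, NES ranked 275 by r with NEFH and PRPH ranked 4810, and 122 genes had an r over 0.9, where the median r was 0.00586. The 3 genes most like NEFH were RHEB, a small GTPase that activates mTORC1 (r = 0.988), the noncoding AC018647.2 (r = 0.985) and LINC00339 (r = 0.982). RHEB was 132, 147 and 166 CPM with NC-mimic and 128, 138 and 132 CPM with the mimic. Its range was far narrower than that of NEFH, with the same NC-mimic replicate 3 as the highest library. These values describe likeness over 6 libraries and say nothing of a shared control.

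The genes around the filaments were taken as 7 lists with 74 genes in all, of which 63 were tested in LNCaP and 69 in 22Rv1 and over both lines. The rule of the study called 0 of those tested in each of the 3 comparisons, where it called 2.22%, 1.48% and 1.54% of all genes. The median log2 fold change of a list lay between -0.02 and 0.08 in LNCaP and between -0.07 and 0.14 in 22Rv1, against -0.0027 and -0.0052 over all genes tested. Among their most abundant genes by TPM, the nuclear lamins LMNA and LMNB1 were 207 ± 6.75 and 133 ± 38.7 TPM (SD, n = 3) in the control libraries of 22Rv1 and 216 ± 10.6 and 131 ± 69.4 TPM with the mimic. KIF5B, a kinesin that carries cargo such as filaments, was 70.7 ± 3.85 and 77.0 ± 3.90 TPM there. DYNC1H1, the heavy chain of dynein, was 232 ± 26.7 and 262 ± 20.7 TPM.

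Between the lines the same lists differed widely, as did most genes. Of the 13 tested genes of the neuronal cytoskeleton, 9 were higher and 1 was lower in 22Rv1 by an adjusted p under 0.05, with a median log2 fold change of 2.26 against 0.01 over all genes, beside 30.9% higher and 27.5% lower over all genes. TUBB3, a neuronal tubulin, was 7.38-fold higher (95% interval 5.47 to 9.97, 18.3 ± 0.932 TPM in LNCaP and 131 ± 36.2 TPM in 22Rv1 with NC-mimic). ANK3, which anchors membrane proteins to the cytoskeleton, was the lower gene of that list, at 126 ± 10.2 TPM in LNCaP and 26.3 ± 3.74 TPM in 22Rv1. STMN2, GAP43 and DCX were below the filter. STMN4, UCHL1 and ANK2 were below it in the fit of LNCaP alone and entered the fit between the lines through 22Rv1. The count and median of this list are therefore not read as a result.

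Of the other intermediate filament genes, 5 of 8 tested were higher and 1 was lower in 22Rv1, with a median log2 fold change of 0.97. GFAP and BFSP1 were below the filter in the fit of LNCaP alone and entered through 22Rv1, so this count is not read as a result. VIM, the vimentin gene and a partner of nestin, named after its values were seen, was 7.42-fold higher (95% interval 3.07 to 17.9, adjusted p 0.00236 by edgeR). The plakins, which cross-link filaments to other parts of the cell, had 1 of 7 higher and 5 of 7 lower. For these and the next lists too, the shares over all genes are 30.9% higher and 27.5% lower, and no list was tested as a group. MACF1 was 49.5 ± 2.34 TPM in LNCaP and 22.7 ± 4.92 TPM in 22Rv1, and DSP, which ties keratin filaments to desmosomes, 53.3 ± 1.06 and 20.2 ± 5.21 TPM.

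The kinases and partners that act on filament tails had 3 higher and 2 lower of 12, and the abundant PPP2CA, a phosphatase subunit, was 124 ± 18.97 TPM in LNCaP with NC-mimic and 104 ± 11.8 TPM in 22Rv1. CDK5R2, an activator of CDK5 that was named after its values were seen, was 523-fold higher in 22Rv1 (95% interval 195 to 1400). It was below the low-count filter in the fit of LNCaP alone and entered this fit through 22Rv1. The LNCaP side of this fold therefore rests on few reads. Motors had 2 higher and 4 lower of 9, where KIF5A, the neuronal kinesin, named likewise, was 37.3-fold higher and KIF5B was 1.87-fold lower. Turnover genes and chaperones had 3 higher and 4 lower of 10, with STUB1 1.79-fold higher and HSPB1 at 1310 ± 212 TPM in LNCaP and 952 ± 335 TPM in 22Rv1.

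REST, the repressor of neuronal genes, and its partners had 3 higher and 3 lower of 10, with a median log2 fold change of 0.09. REST itself had a log2 fold change of 0.09 (SE 0.13, adjusted p 0.580 by edgeR) between the lines and was named after its values were seen. HDAC1 and HDAC2, histone deacetylases of the complex, were 188 ± 6.85 and 196 ± 15.6 TPM in LNCaP and 248 ± 16.8 and 227 ± 13.3 TPM in 22Rv1 with NC-mimic. The 95% interval of the REST difference ran from -0.21 to 0.39. With the mimic REST had a log2 fold change of -0.01 (SE 0.08) in LNCaP and of 0.41 (SE 0.19) in 22Rv1, and both adjusted p-values were 0.999 by edgeR with Benjamini-Hochberg adjustment.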

How the data were processed

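The mRNA libraries were LNCaP and 22Rv1 cells with NC-mimic or piR-4447944 mimic, 3 per group, mapped to groups by their titles. Per the labels, the authors used STAR 2.7.1a on hg38 and then RSEM 1.3.0 for gene quantification. The annotation release, trimming, read length and strand of counting are not given in the sources used here. The authors deposited an expected count per gene, not normalized, in which a read matching several genes is divided between them, and TPM, which is scaled by effective length and holds no depth. The deposited table of all TPM held the same values as the tables per library (largest difference 0).

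Rounded expected counts entered edgeR 4.0.16 in R 4.3.3 (TMM, filterByExpr, quasi-likelihood test, Benjamini-Hochberg adjustment over all genes of a fit), in each line apart, over all 12 libraries for the mean effect and for its difference between the lines, and between the lines with NC-mimic. The authors used DESeq2. CPM were scaled by TMM over all 12 libraries, with a prior count of 2 for log2 CPM. The same fits were read by the rule of the study (unadjusted p under 0.05, log2 fold change past 0.2 either way). Standard errors came from the estimate and the test statistic. Counting intervals were exact 95% binomial intervals of summed counts and cover counting error only, and single genes were compared with exact two-sided permutation tests (SciPy 1.17.1). The scripts were tested on simulated data. Gene models and 3′UTRs came from GENCODE release 44.

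The 6 genes, the 7 lists of 74 genes, the 5 marker lists and the tests were chosen with earlier results of these data known. The named genes were the 6 filament genes, any list gene called by the rule of the study, and the 2 genes with the highest TPM in each list, some of which are not reported here. Markers and list genes below the filter are named from the lists, and other genes were picked with their values known. Deviations from the group means of libraries with the same replicate number correlated across genes at 0.251, 0.197 and 0.392 in 22Rv1. The values alone, and no label, are the reason to treat the replicate 3 libraries of 22Rv1 as a pair. NC-mimic replicate 1 with mimic replicate 2 correlated at 0.238, and NC-mimic replicate 2 with mimic replicate 1 at 0.116. The values thus set replicate 3 apart but do not show how replicates 1 and 2 pair. In LNCaP libraries with the same number correlated at 0.063, 0.00583 and 0.241. They were treated as pairs only in the fits with a replicate block. Between the lines that block joined LNCaP and 22Rv1 libraries of the same number, a link the labels do not give. As alternatives, the size factors of DESeq2 1.42.0, its Wald test (fold changes shrunken except for the difference between lines), a fit without the low-count filter, limma 3.58.1 on log2(TPM + 1) where 3 libraries reached a TPM of 1, a replicate block, 1 fit of all 12 libraries, and fits without each library were run. The piRNA itself, the small RNA sequencing of tissues and all protein, RT-qPCR and animal measurements were not analysed here.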

Additional observations from a re-analysis of the deposited data

Results flagged for a closer look

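For NEFL the test of a difference in mimic effect between the lines gave an unadjusted p under 0.05. The log2 fold change in 22Rv1 minus that in LNCaP was -1.739 (SE 0.70, 95% interval -3.27 to -0.21), with a p by edgeR of 0.0293 before and 1 after Benjamini-Hochberg adjustment, so it failed the correction over 18720 genes. In 22Rv1 all 3 mimic libraries lay below all 3 controls, at 5 against 18 counts in all, while in LNCaP the groups overlapped at 735 against 882 counts. The estimate ranged from -2.32 to -1.23 with 1 library left out, and the unadjusted p was 0.0796 without 22Rv1 piR-4447944 mimic replicate 1, 0.0768 without 22Rv1 NC-mimic replicate 3 and 0.0665 without 22Rv1 NC-mimic replicate 2. With the replicate block these p-values of edgeR were 0.00921 and 0.886. On log2(TPM + 1), where low genes are compressed, limma gave -0.23. NEFL passed the filter of this fit only through LNCaP and was below it in 22Rv1 alone, and the part of counting error in this difference was not tested.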

How the results depend on the processing

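All 4 differences between the lines (NEFH, NES, PRPH and NEFL) kept their direction and an adjusted p under 0.05 in each alternative run. NEFH and NEFL passed the low-count filter only through the line in which they are high, so their part of this outcome is not read as added support. Of 272 alternatives to the 18 member values, 248 kept direction and side of the threshold, 22 changed sign and 2 are calls by the rule of the study with all libraries (NEFH over both lines, NEFL in the difference between lines). With 1 library left out, that rule was met by NEFH over both lines in 11 of 12 fits (not without 22Rv1 NC-mimic replicate 3), by NES over both lines in 2 of 12, and by NEFH and NES in 22Rv1 in 1 of 6 each. The sign changes were in values of PRPH, NES and NEFL that missed the threshold in each setting, and in NEFH for the difference between lines, which missed it too and was -0.24 with limma on log2(TPM + 1) against 0.68. With limma PRPH was -0.088 in LNCaP, -0.059 over both lines and 0.058 in the difference between lines. The cause was not tested.

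With 1 library left out PRPH ranged from -0.073 to 0.28 in LNCaP, from -0.22 to 0.091 in 22Rv1, from -0.071 to 0.099 over both lines and from -0.31 to 0.054 in the difference. NEFL in LNCaP ranged from -0.12 to 0.046, NES in LNCaP from -0.37 to 0.085 and NES in the difference from -0.43 to 0.032. The r of PRPH with NEFH was -0.36 without both replicate 3 libraries.

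Over all genes, the number called was 0 in each mimic comparison by edgeR with an adjusted p under 0.05. The rule of the study gave 361 in LNCaP, 250 in 22Rv1, 289 over both lines and 610 in the difference. DESeq2 gave 2, 1, 0 and 3, limma 1 in LNCaP, 2 in 22Rv1 and 2 in the difference, and no low-count filter gave 46 in LNCaP. Leaving out 1 library gave 0 to 2 in LNCaP (2 without NC-mimic replicate 3) and 0 to 1 in the difference (1 without 22Rv1 piR-4447944 mimic replicate 1). Leaving out both 22Rv1 replicate 3 libraries, chosen after seeing the data, gave 4. With the replicate block 0 genes were called in each mimic comparison and 9713 between the lines, against 10226 without it, and the block changed no call of a filament gene. Between the lines the block joined libraries of LNCaP and 22Rv1 by number alone. Depth limits NEFH in LNCaP, NEFL in 22Rv1, and NEFM and INA in both lines.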

Other observations

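AC125611.4, a gene on the strand opposite PRPH that was named after its values were seen, was higher with the mimic in every library of both lines. Its expected counts in LNCaP were 8.89, 9.34 and 2.44 with NC-mimic and 11.11, 12.43 and 14.54 with the mimic, and in 22Rv1 they were 47, 38 and 43.03 against 63, 65.06 and 92.78. The log2 fold change was 1.12 (SE 0.52) in LNCaP, 0.78 (SE 0.38) in 22Rv1 and 0.93 (SE 0.31) over both lines, the last with an unadjusted p of 0.00939. Groups that do not overlap in this direction were found for 4.11% of genes in LNCaP and 4.06% in 22Rv1. All 3 adjusted p-values were 0.999 by edgeR with Benjamini-Hochberg adjustment, and 0.86% of genes met the rule of the study over both lines in this direction. The strand of counting is not given in the sources used here, so reads of PRPH and of AC125611.4 cannot be told apart where the genes overlap.

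AC000035.1, on the strand opposite NEFH, and the pseudogene NEFHP1 had 0 counts in every group, so no reads of NEFH were assigned to either. NT5C2, a coding gene on the strand opposite INA that was also named after its values were seen, had 781 to 2568 counts in the libraries with NC-mimic, where INA had at most 1.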
